A study of Homo sapiens with 6 samples.

Results

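The 3 chromosome stretches described here are chr19:1-3000000 at the tip of the short arm of chromosome 19, chr9:139000000-141213431 at the tip of the long arm of chromosome 9, and chr14:105000000-106400000 near the end of the long arm of chromosome 14 (build hg19). They are called the 19p, 9q and 14q windows below. They were chosen because they hold the 1 Mb bins in which the sequence covered by H3K4me3 was larger after metformin by the greatest amount. The members are all called intervals of 4 peak lists that overlap a window, 1624 of 275570 in all. They comprise 750 of 53454 H3K4me3 intervals from metformin-treated cells, 593 of 50585 from control cells, 147 of 85952 H3K27me3 intervals from metformin-treated cells and 134 of 85579 from control cells.

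The cells were H1299, a human lung cancer line of the non-small cell type that has long been established in culture. The labels give all samples the same range of passages. Metformin-treated cells received 5 mM metformin and control cells received none. Chromatin was cross-linked, cut with micrococcal nuclease and precipitated with an antibody against each mark (ChIP-seq), with 1 library for each mark and condition. The 2 input libraries were not analysed here. No test between conditions could be made, no value below has a replicate error, and an effect of metformin cannot be told apart from a difference between 2 libraries. Read depth is unknown, because the lists hold positions and 1 value per peak and no counts. That value was read as a −log10 q, a measure of how sure the peak call is and not a signal level.

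H3K4me3, the trimethylated form of histone H3 lysine 4, is laid down by SET1 and MLL complexes around the start sites of active genes, most of all where these lie in CpG islands. H3K27me3 is laid down by Polycomb repressive complex PRC2 over silent developmental genes, and where both marks meet at a promoter it is called bivalent. Chromosome ends of this kind are known for many short, closely spaced genes and a high content of G and C. Standard maps place STK11, which encodes the kinase LKB1 that activates AMPK, on the tip of the short arm of chromosome 19. They place the receptor gene NOTCH1 near the end of the long arm of chromosome 9, and AKT1 with the immunoglobulin heavy chain genes near the end of the long arm of chromosome 14. These are landmarks only: no interval was matched to a gene and no sequence is printed, because no hg19 annotation or genome was used here.

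The windows were rich in H3K4me3 in both conditions. Covered length was 734 kb in metformin-treated and 537 kb in control cells over 6.61 Mb, which is 111 and 81.2 kb per Mb. The median in control cells was 13.8 kb over the 2528 bins of 1 Mb with H3K4me3 in either list. Bins without the mark are left out of that median. The 19p and 9q windows reach the ends of their chromosomes. The 14q window stops short: intervals of chromosome 14 reached 107.25 Mb, although only 2 metformin and 1 control H3K4me3 intervals lay beyond the window. Gene density was not measured. The submitters' processing notes name hg19 as the build. On chromosomes 9, 14 and 19 the last intervals ended at 141108035, 107254153 and 59088525. The last genes of the GRCh38.p14 RefSeq table end before these, at 138331809, 106879844 and 58599484. A last gene is not the end of a chromosome, so this comparison alone does not settle the build.

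H3K4me3 covered more sequence in the metformin list in each window. These values chose the windows, so they are given as a description. In the 19p window H3K4me3 covered 373 kb after metformin and 278 kb in control cells, a ratio of 1.34. In the 9q window it covered 229 kb after metformin and 161 kb in control cells (1.43), and in the 14q window 132 kb and 98.3 kb (1.35). For the 3 windows together the ratio was 1.37. In the rest of the genome it was 1.11, and in the rest of chromosomes 9, 14 and 19 it was 1.14.

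The bin of 1 to 2 Mb on chromosome 19 showed the greatest difference of the genome, with 165 kb after metformin and 122 kb in control cells. It was followed by 140 to 141 Mb of chromosome 9 (108 and 73.8 kb), 105 to 106 Mb of chromosome 14 (132 and 98.3 kb) and 139 to 140 Mb of chromosome 9 (119 and 84.8 kb). These bins were larger by 42.9, 34.4, 34.1 and 34.0 kb. Just outside this group came 18 to 19 Mb of chromosome 19, larger by 33.8 kb, and 36 to 37 Mb of chromosome 19, larger by 31.8 kb. The outer 2 bins of the 19p window ranked lower: 0 to 1 Mb held 84.9 kb after metformin and 57.7 kb in control cells, and 2 to 3 Mb held 123 kb after metformin and 98.6 kb in control cells, which are ranks 10 and 14 by difference. By ratio the order changed. The bin of 0 to 1 Mb of chromosome 19 had the highest ratio of the windows (1.47, rank 3 among 869 bins with at least 20 kb in control cells), and that of 2 to 3 Mb the lowest (1.25, rank 106). The 6 window bins with at least 20 kb in control cells were all at or above 1.2 times control, which 21.9% of all 869 bins reached. The rule used this contrast, and nothing is read from that count.

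**Figure D1:**
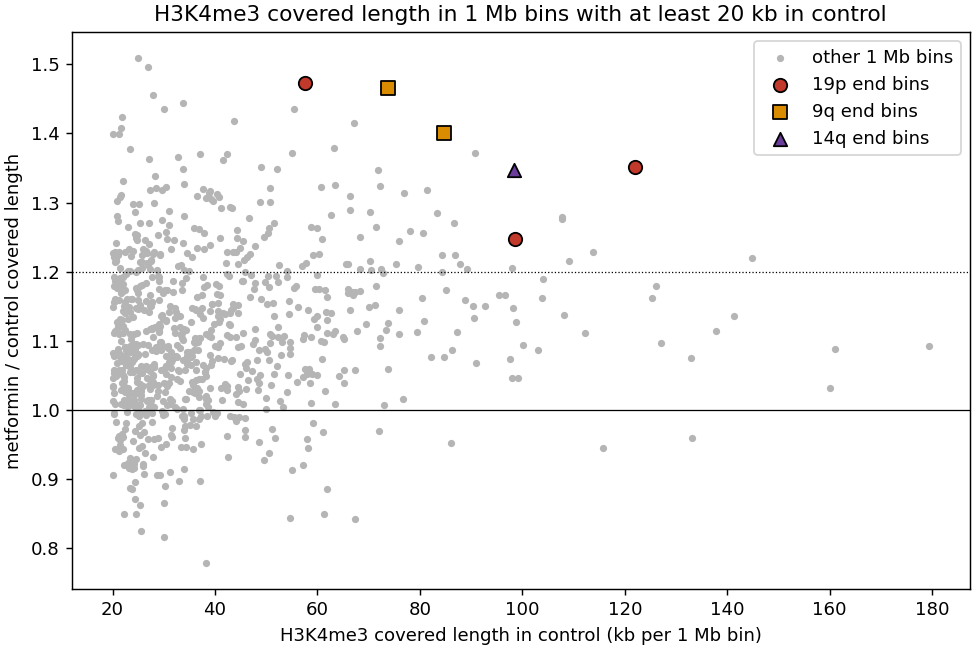
Each point is a 1 Mb bin with at least 20 kb of H3K4me3 in control cells. The x axis gives the control covered length in kb and the y axis the covered length after metformin divided by that in control cells; the solid line marks 1 and the dotted line 1.2. The 6 window bins lie between 1.25 and 1.47, and the median of all such bins is 1.10.

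Within the windows the larger coverage was spread over nearly all of the marked sequence rather than held by a few bins. Of 67 bins of 100 kb, 55 held more H3K4me3 in the metformin list, 1 held less and 11 held none in either list. Of the 51 bins with at least 2 kb in control cells, 51 held more after metformin, against 66.3% of all such bins of the genome. At least 1.2 times as much was found in 43 of the 51, against 27.9% of all such bins. The median ratio of the 51 bins was 1.40, and that of the 7719 such bins of the genome was 1.08. The windows had been picked on the sum of these bins, so both counts are descriptions.

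The 3 bins of each window with the greatest differences did not include its densest one, except on chromosome 9. In the 19p window they were 1.4 to 1.5 Mb (28.6 kb after metformin and 19.5 kb in control cells), 1.0 to 1.1 Mb (20.5 and 13.2 kb) and 0.6 to 0.7 Mb (16.0 and 10.3 kb). The densest bin there, 1.2 to 1.3 Mb, held 36.7 kb after metformin and 31.6 kb in control cells, a ratio of only 1.16. In the 9q window they were 140.0 to 140.1 Mb (31.7 and 20.3 kb), 140.1 to 140.2 Mb (32.0 and 23.3 kb) and 140.3 to 140.4 Mb (15.6 and 8.37 kb). The single bin with less H3K4me3 after metformin lies between these, at 140.2 to 140.3 Mb, with 0.416 kb after metformin and 0.497 kb in control cells. In the 14q window they were the adjoining bins from 105.6 to 105.9 Mb, with 7.18, 15.2 and 15.7 kb after metformin and 2.09, 8.94 and 9.84 kb in control cells. The densest 14q bin, 105.4 to 105.5 Mb, held 33.1 kb after metformin and 30.1 kb in control cells.

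**Figure D2:**
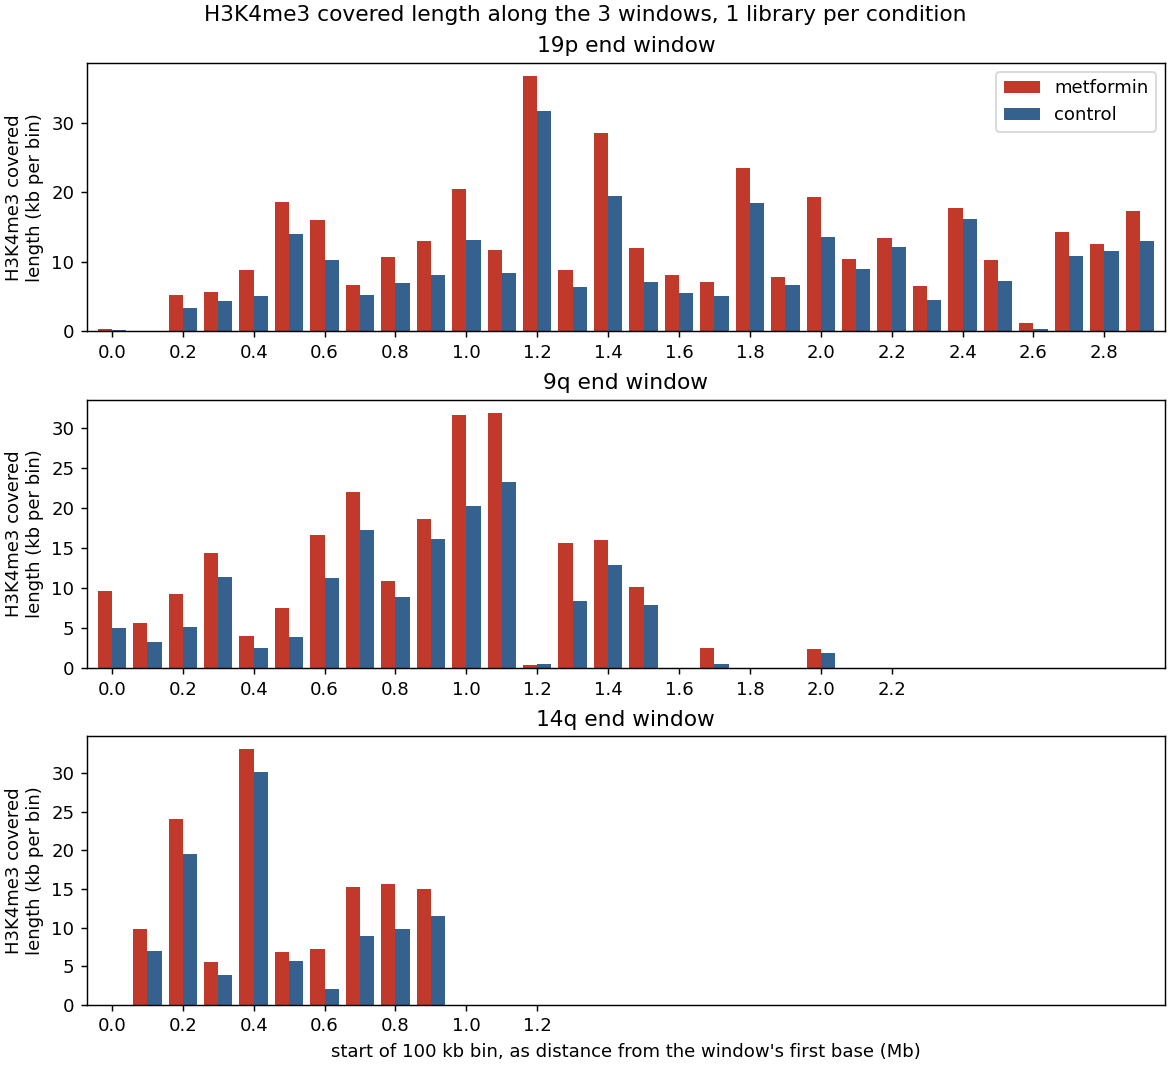
Bars give the H3K4me3 covered length (kb) in successive 100 kb bins of each window, in metformin-treated and control cells, against the distance of the bin from the window's first base (Mb); there is 1 library per condition. Metformin bars are the taller ones in 55 of the 56 bins that hold the mark.

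Both the number and the mean width of intervals were larger in the metformin list, in windows chosen for larger coverage. The 19p window held 386 intervals after metformin and 315 in control cells, the 9q window 248 and 182, and the 14q window 116 and 96. Together the number was 1.26 times as large after metformin (1.05 times in the rest of the genome) and the mean width, 979 bp after metformin and 906 bp in control cells, was 1.08 times as large (1.06 times in the rest). The 9q window stood at 1.36 times by number and 1.05 times by mean width. Its median width went the other way, at 505 bp after metformin and 555.5 bp in control cells. Over the 3 windows the median width was 555.5 bp after metformin and 532 bp in control cells. The 14q window stood at 1.21 and 1.11 times. Sub-peaks, the separate summits that the lists give for an interval, numbered 1878 after metformin and 1381 in control cells, 2.50 and 2.33 per interval.

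The deposited values did not shift as a block. The median −log10 q of window intervals was 6.39 after metformin and 6.66 in control cells, while in the rest of the genome it was 6.31 and 5.73. The share of intervals at 5 or more was 58.0% after metformin and 58.9% in control cells. By ratio the counts differed more at both ends than in between. At the upper end 167 metformin and 103 control intervals reached 20, and 23 and 8 reached 50. Of those that reached 50, 11 metformin and 2 control intervals lay on 14q. Intervals under 2 numbered 66 after metformin and 41 in control cells. From 2 to 5 the counts were 249 and 203, and from 5 to 20 they were 268 and 246. The metformin list thus held more intervals in every class, in windows chosen for larger coverage. In the rest of the genome 13889 metformin and 11178 control intervals reached 20, 3110 and 1651 reached 50, and 5114 and 4929 lay under 2. Values of different lists are not levels of one scale, so they are set side by side only.

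Many metformin intervals of the windows had no partner in control cells, and most control intervals had one after metformin. Any overlap, down to 1 bp, made an interval a shared one. Of the 750 metformin intervals, 437 were shared (58.3%, exact Clopper-Pearson 95% interval 54.6 to 61.8, counting error only), and 313 (41.7%) had no partner, against 32.7% of the whole metformin list. Of the 593 control intervals, 502 were shared (84.7%, 81.5 to 87.5), and 91 (15.3%) had no partner, against 22.7% of the whole control list. The 9q window had the lowest shared part of metformin intervals (54.8%) and the 14q window the highest (65.5%). These shares come from the contrast that chose the windows.

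Metformin intervals without a partner were short and low in value. Their median width was 293 bp and their median −log10 q 3.52, against 1089 bp and 15.1 for the shared ones. The rest of the genome was alike, with 263 bp and 3.17 for unpartnered metformin intervals and 952 bp and 13.2 for shared ones. Among metformin intervals under 2, 8 of 66 had a partner (12.1%, against 27.7% in the rest of the genome). From 2 to 5 it was 61 of 249 (24.5%, against 40.4% in the rest). From 5 to 20 it was 202 of 268 (75.4%, against 81.5%), and from 20 upwards 166 of 167 (99.4%, against 99.9%). The exception had a −log10 q of 20.7 and a width of 179 bp. All 104 metformin intervals of 2 kb or more and all 72 such control intervals had partners. In the rest of the genome 8667 of 8668 such metformin intervals and all 7331 control ones had them too. The median gap from an unpartnered metformin interval to the nearest control one was 848 bp, against 676 bp in the rest of the genome. Of the 313, 179 lay within 1 kb (57.2%, against 62.0% in the rest), and 20 lay more than 5 kb away (6.39%, against 15.8%).

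The sequence that only one list covered was split by where it lay. In the metformin list 258 kb, or 35.2% of its length in the windows, lay outside control intervals (25.5% in the rest of the genome). In the control list 61.0 kb, or 11.3%, lay outside metformin intervals (17.1% in the rest). Of the 258 kb, 113 kb (43.8%) lay in intervals with no partner, 112 kb (43.3%) at the outer edges of partnered intervals and 33.4 kb (12.9%) in gaps between neighbouring control intervals that 1 metformin interval bridged. In the rest of the genome these parts were 38.6%, 45.6% and 15.8%. In the 14q window the edges made up more (51.0%) than the unpartnered intervals (37.6%), and in the other windows the unpartnered intervals came first (43.8% against 41.6% on 19p and 46.8% against 41.9% on 9q). Median edges were 209 bp per metformin interval and 66 bp per control interval.

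**Figure D3:**
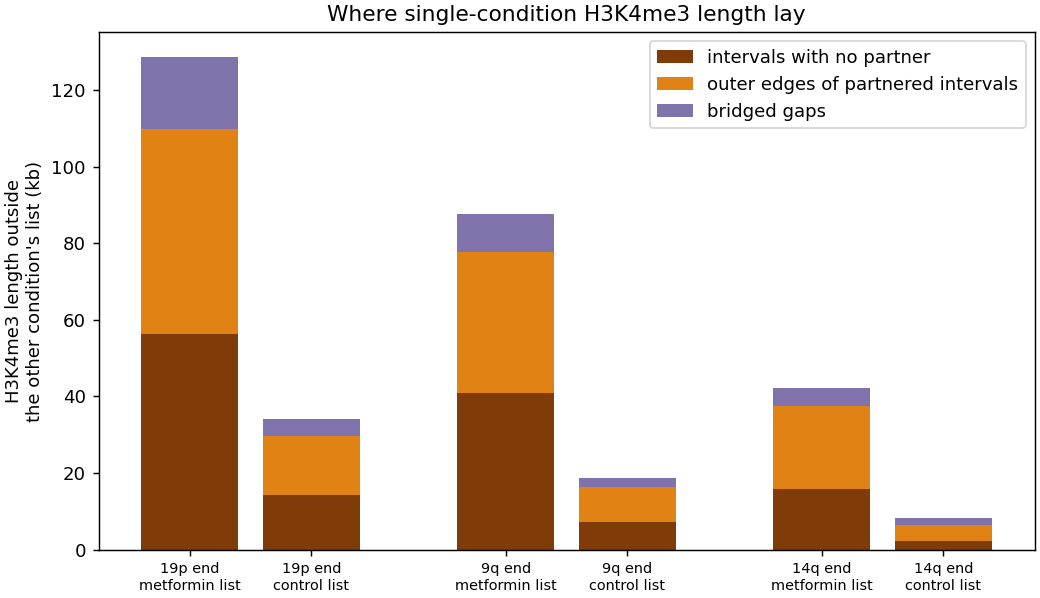
Stacked bars give the H3K4me3 length (kb) of each window's list that the other condition's list did not cover, for the metformin and the control list side by side. The metformin bars reach 129, 87.5 and 42.2 kb and the control bars 34.1, 18.7 and 8.16 kb, and partnerless intervals and edges fill most of each metformin bar.

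The metformin intervals with the most sequence outside control intervals were mostly sites with smaller control intervals inside them. The first on 14q was chr14:105880667-105886101, 5435 bp long with 14 sub-peaks, where the control list held 3 intervals, the widest of 1969 bp, and 2492 bp were outside them. On 19p the first was chr19:1130122-1133652, 3531 bp long, over 3 control intervals of at most 994 bp, with 1426 bp of bridged gaps and 567 bp of edges. It was followed by chr19:983921-987172 (1603 bp outside, 1349 bp of them at the edges), chr19:2523593-2525940 (1384 bp), chr19:2925144-2927711 (1337 bp) and chr19:1845556-1849182 (1326 bp). On 9q the first was chr9:140091084-140094550, 3467 bp long with 1488 bp outside 2 control intervals. The others with control partners there were chr9:139330218-139334530 (1415 bp outside), chr9:140008766-140010912 (1353 bp) and chr9:139437382-139440017 (1337 bp).

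Other sites differed from this pattern. Some metformin intervals had no control partner at all: chr9:140120348-140121804, 1457 bp long with a −log10 q of 6.21, lay 1119 bp from the nearest control interval, and chr14:105187857-105189259, 1403 bp long at 4.69, lay 798 bp from it. On 14q other metformin intervals held a single small control interval or part of one: chr14:105778556-105780824 was 2269 bp long over a control interval of 633 bp, chr14:105648143-105649709 was 1567 bp over 167 bp, and chr14:105645588-105647299 was 1712 bp over 598 bp. The last pair lie in the bin of 105.6 to 105.7 Mb that had the highest ratio (3.45) among window bins with at least 2 kb in control cells.

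Control intervals with the most sequence outside the metformin list were fewer and smaller. On 19p they were chr19:751419-752147, 729 bp long at a −log10 q of 3.20 and 18334 bp from the nearest metformin interval, chr19:1256652-1258644 (617 bp outside) and chr19:2978704-2979438 (563 bp). On 9q they were chr9:140470540-140474706, where 598 bp fell in a gap between 2 metformin intervals, chr9:139969533-139970227 (529 bp) and chr9:139618669-139622359 (474 bp). On 14q they were chr14:105500092-105500808 (661 bp), chr14:105499264-105499670 (407 bp, with no partner) and chr14:105269648-105270373 (398 bp). The largest of the 9 values, 729 bp, was smaller than each of the 15 metformin values above, which start at 1114 bp. These values come from the contrast that chose the windows, so the order is only a description.

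The intervals of highest value were present in both lists. On 14q chr14:105479312-105487381, the longest H3K4me3 interval of the windows, was 8070 bp long with 21 sub-peaks and a −log10 q of 88.6 after metformin, and its control counterpart chr14:105480346-105487409 was 7064 bp long with 17 sub-peaks at 69.9. Next after metformin came chr14:105218305-105218984 (68.2, with a highest control value of 30.7) and chr14:105442688-105444442 (64.7 and 36.1), and next in control cells chr14:105487785-105491325 (64.3 after metformin and 57.6 in control cells) and chr14:105219494-105222313 (54.4 and 46.4). On 9q the metformin list was led by chr9:139134612-139137460 (65.2 after metformin and 30.7 in control cells), chr9:140100142-140102347 (61.0 and 46.9) and chr9:139305119-139307478 (57.5 and 53.2). The control list was led there by chr9:139618669-139622359 (49.8 after metformin and 53.5 in control cells), chr9:139305103-139307923 and chr9:139375002-139377128 (51.5 and 50.9).

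On 19p the leading sites differed between the lists. After metformin they were chr19:572637-575496 (64.3 after metformin and 38.6 in control cells), chr19:1873921-1876812 (61.6 and 38.3) and chr19:2234313-2235919 (54.6 and 37.1). In control cells they were chr19:2785561-2787933 (36.7 after metformin and 57.6 in control cells), chr19:2781151-2783268 (49.8 and 56.6) and chr19:2948973-2950690 (49.8 and 55.8). The leading control sites all lay beyond 2.7 Mb, in the Mb of the window with the lowest ratio of covered length, and had lower values in the metformin list. The interval chr19:572637-575496 was 2860 bp long and lay wholly within its control partner of 2885 bp, so a higher value did not always come with a greater width.

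Pairs in which 1 control interval matched 1 metformin interval give the width of a site without splitting or joining. There were 296 in the windows. Wider metformin intervals add to the coverage that chose the windows, so the comparisons with the rest below are descriptions only. The wider member was the metformin one in 215 of the 295 that differed (72.9%), against 60.4% in the rest of the genome. The median width was 927 bp after metformin and 679 bp in control cells, and the median ratio 1.14 (1.06 in the rest). The metformin interval was at least 1.2 times as wide in 134 pairs (45.3%), against 35.7% of all 21768 pairs. It was narrower by the same factor in 32 (10.8%, against 19.6% in the rest). The windows differed little from each other, with 71.2%, 74.5% and 74.5% wider on 19p, 9q and 14q. Higher deposited values in the metformin interval were found in 226 of the 296 pairs, 76.4% against 69.8% in the rest.

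Broad H3K4me3 domains of 4 kb or more, a class often seen at genes that define a cell's identity, numbered 18 after metformin and 8 in control cells. The ratio of 2.25 compares with 1.29 for all such domains of the genome, on small counts and in windows chosen for larger coverage. Of the 18, 7 were also broad in control cells and 11 were not, but none lacked control H3K4me3, and 87.0% of their summed length was under control intervals. Of all 1595 metformin domains of the genome, 750 were not broad in control cells. None of the 1595 lacked control H3K4me3, and 90.1% of their length was under control intervals. On 19p the numbers were 10 and 3. The 3 domains broad in both lists were 5570, 5276 and 4299 bp long after metformin, and in control cells they were chr19:1269777-1275372 (5596 bp), chr19:2236873-2241457 (4585 bp) and chr19:2269524-2273732 (4209 bp). The other 7 on 19p ran from 4027 bp at chr19:1407992-1412018 to 5580 bp at chr19:1857242-1862821. The longest of them lay over 3 control intervals of at most 3246 bp. On 9q they numbered 4 and 3, and 1 site held 2 metformin intervals of at most 3366 bp where the control list had 1 broad interval of 4167 bp, chr9:140470540-140474706. On 14q they numbered 4 and 2. None of these domains was touched by H3K27me3 of its own condition.

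Some other chromosome ends had ratios close to those of the windows. Over the terminal 3 Mb of 28 chromosome arms with at least 50 kb of control H3K4me3, the ratio of covered length was highest on 9q (1.42), followed by 22q (1.42), 14q (1.38), 5p (1.37) and 19p (1.34). For 9q and 14q these stretches differ from the windows, since they end at the last interval of the chromosome. Among the 25 other ends the ratio ran from 0.976 on 18p to 1.42 on 22q with a median of 1.22. It was above that of the whole list (1.12) in 20 of them and at least 1.2 in 15. At the other end of chromosome 19, H3K4me3 covered 256 kb after metformin and 233 kb in control cells, a ratio of 1.10. Other densely marked ends were 8q (304 kb after metformin and 239 kb in control cells), 16q (234 and 178 kb) and 17q (258 and 203 kb), at ratios of 1.27, 1.31 and 1.27.

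**Figure D4:**
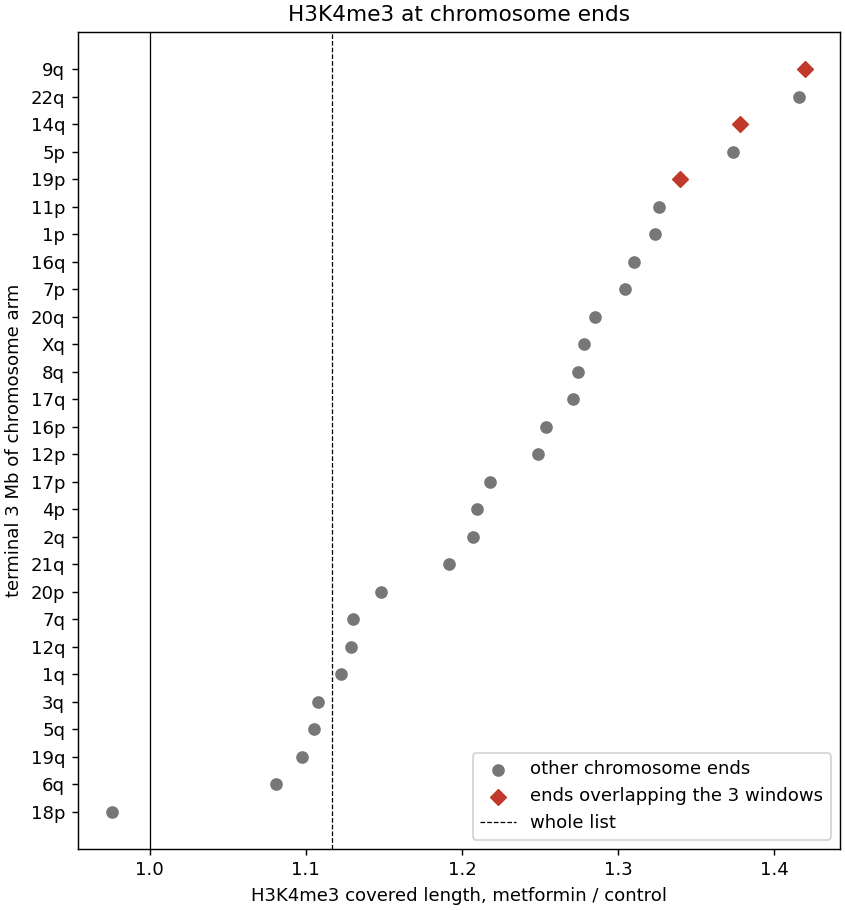
Points give the metformin to control ratio of H3K4me3 covered length over the terminal 3 Mb of each chromosome arm with at least 50 kb of control H3K4me3; the dashed line is the ratio of the whole list, 1.12. The ends that overlap the windows take ranks 1, 3 and 5 of 28, next to 22q and 5p.

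Bins of equal density outside the windows had lower ratios on the median, with some as high. The windows were chosen for a large difference in this same contrast, so the lower median outside them is only a description. Outside the windows 135 bins of 1 Mb had a control covered length within the range of the 6 window bins, 57.7 to 122 kb. Their median ratio was 1.15, and 44 (32.6%) reached 1.2. The ratio of the lowest window bin, 1.25, was reached by 24 of them, led by 144 to 145 Mb of chromosome 8 (1.41), 0 to 1 Mb of chromosome 16 (1.38) and 18 to 19 Mb of chromosome 19 (1.37). The median ratio of bins outside the windows was 1.08 at 20 to 40 kb of control H3K4me3, 1.11 at 40 to 60 kb, 1.15 at 60 to 80 kb, 1.16 at 80 to 100 kb and 1.12 above that.

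H3K27me3, which the choice of windows did not use, also covered more sequence in the metformin list. It covered 206 kb after metformin and 145 kb in control cells, a ratio of 1.42 against 1.09 in the rest of the genome. This is 31.1 kb per Mb after metformin and 21.9 kb per Mb in control cells. The control median was 14.8 kb over the 2211 bins of 1 Mb with H3K27me3 in either list. In the 19p window it covered 53.3 kb after metformin and 26.0 kb in control cells (2.05), in the 9q window 39.3 and 28.9 kb (1.36), and in the 14q window 113 and 89.8 kb (1.26). The number of intervals differed less: 36 after metformin and 39 in control cells on 19p, 41 and 40 on 9q, and 70 and 55 on 14q. On 19p it was thus the width that differed, with a mean of 1481 bp after metformin and 666 bp in control cells. Of the 1 Mb bins of the windows, 1 held 20 kb or more in control cells, 105 to 106 Mb of chromosome 14, and it reached 1.2 times control (1.23), as did 26.6% of all such bins. Of 13 bins of 100 kb with at least 2 kb in control cells, 8 reached 1.2 times, against 34.7% of all such bins. The values were low throughout, with medians of 1.62 after metformin and 1.59 in control cells and none above 2.75, so these calls lie near the calling limit. The lists shared few intervals. A partner was found for 75 of 147 metformin intervals (51.0%, against 46.3% in the rest of the genome). For control intervals it was 85 of 134 (63.4%, against 48.3%). In one-to-one pairs the metformin interval was wider in 23 of 40, but on 9q in only 4 of 11. Over the terminal 3 Mb of the 28 chromosome arms above, H3K27me3 covered less after metformin only on 22q, 7q, 1q, 19q and 18p. Outside the windows it covered more on, for example, 16q (120 kb after metformin and 78.3 kb in control cells) and 1p (38.3 and 23.3 kb).

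Most of the 19p difference came from one block, chosen after its values were seen. Between 1.6 and 1.8 Mb H3K27me3 covered 40.3 kb in 24 intervals after metformin and 17.7 kb in 23 intervals in control cells, and the rest of the window held 13.0 and 8.30 kb. The longest 19p interval after metformin, chr19:1705441-1712953, was 7513 bp long and lay over 4 control intervals of at most 1216 bp. The site of the longest control interval was 2823 bp long after metformin and 2722 bp in control cells (chr19:1750174-1752895). H3K4me3 was thin in this block, at 15.2 kb after metformin and 10.7 kb in control cells.

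On 14q some stretches held one mark and others both. The first 100 kb held no H3K4me3 in either list and 52.3 kb of H3K27me3 after metformin and 44.9 kb in control cells. The longest H3K27me3 intervals of the window lay there, chr14:105084091-105092120 after metformin (8030 bp) and chr14:105081531-105091036 in control cells (9506 bp). From 105.6 to 105.9 Mb, where H3K4me3 covered 38.1 kb after metformin and 20.9 kb in control cells, H3K27me3 covered 0.542 kb after metformin and none in control cells. The last 400 kb held no H3K4me3, and H3K27me3 covered 4.78 kb there after metformin and 1.45 kb in control cells. Bins of 100 kb without H3K4me3 held 57.1 kb of the window's H3K27me3 after metformin and 46.4 kb in control cells, and the rest of it lay in bins with both marks. Among these, 105.3 to 105.4 Mb held 16.8 kb of H3K27me3 and 5.51 kb of H3K4me3 after metformin, and 14.2 and 3.80 kb in control cells. The bin of 105.9 to 106 Mb held 12.2 kb of H3K27me3 and 15.0 kb of H3K4me3 after metformin, and 6.44 and 11.5 kb in control cells. On 9q the longest H3K27me3 interval was chr9:141073523-141078193 after metformin (4671 bp, with 1163 bp under control intervals) and chr9:139672034-139676851 in control cells (4818 bp, with 3948 bp under metformin intervals).

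**Figure D5:**
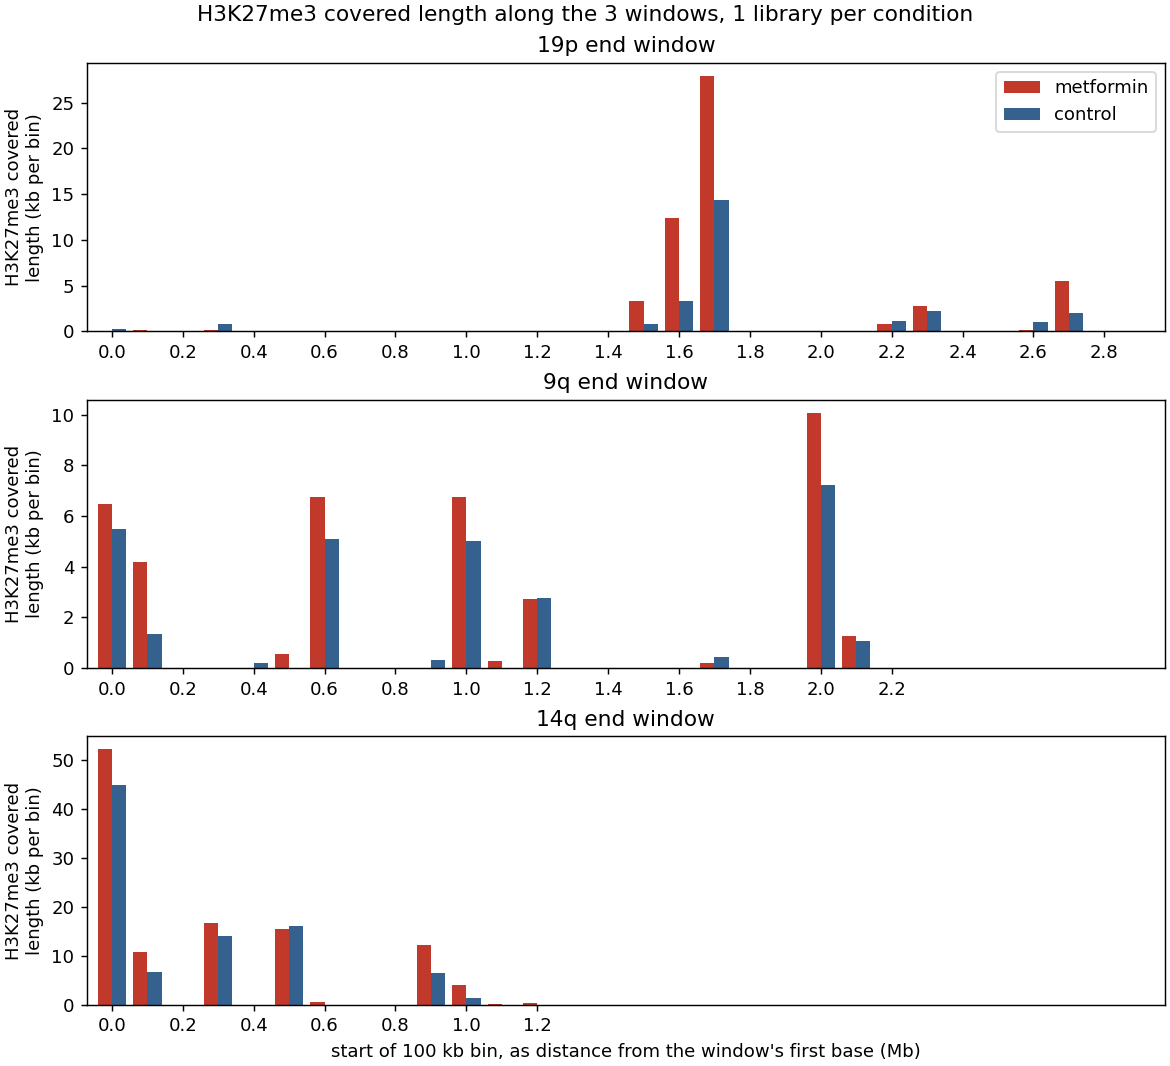
Bars give the H3K27me3 covered length (kb) in successive 100 kb bins of each window, in metformin-treated and control cells, against the distance of the bin from the window's first base (Mb); y axes differ between windows. The mark is found in 31 of 67 bins, with 27.9 kb after metformin and 14.3 kb in control cells in the tallest bin of 19p and 52.3 and 44.9 kb in that of 14q.

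The marks overlapped at few sites, and at more of them in the metformin lists. H3K4me3 intervals touched by H3K27me3 of the same condition numbered 33 of 750 after metformin (4.40%, 95% interval 3.05 to 6.12) and 11 of 593 in control cells (1.85%, 0.930 to 3.29). The 95% ranges give counting error only and treat sites as independent. The sites were clustered, so the ranges are no measure of a difference between conditions. In the rest of the genome the shares were 4.55% and 2.79%, so the windows were near it after metformin. The length under both was 12.4 kb after metformin and 2.63 kb in control cells, 1.69% and 0.490% of H3K4me3 length. In the rest of the genome it was 1070 and 511 kb, or 1.97% and 1.05%. When metformin H3K4me3 was set against control H3K27me3 it was 5413 bp at 19 intervals, and for control H3K4me3 against metformin H3K27me3 it was 6130 bp at 15 intervals. By the marks that covered the same site in control cells, of the 33 sites after metformin 6 held both, 6 H3K4me3 alone, 10 H3K27me3 alone and 11 neither. That split is given for the windows only, so it is not read as a trait of them. Overlap of 2 lists does not show that both marks sat on one nucleosome or in the same cells.

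The overlapping sites came in clusters. On 19p, 13 of the 16 metformin sites and 6 of the 7 control sites lay in the block of 1.6 to 1.8 Mb. The longest was chr19:1751318-1752420, which lay under H3K27me3 over its whole 1103 bp after metformin, and the control H3K4me3 interval within it was 208 bp long. Next came chr19:1689948-1690561 (614 bp), which held neither mark in control cells, and among control sites chr19:1749987-1750787 (614 bp under H3K27me3) and chr19:1752489-1752770 (282 bp). On 9q, 15 metformin and 3 control sites were found. Of the metformin ones 6 lay between 139.0 and 139.2 Mb, where the control lists held none, and 8 between 140.0 and 140.1 Mb, where they held 1. The longest there were chr9:140051871-140052910 (817 bp under H3K27me3) and chr9:140060754-140061842 (813 bp) after metformin, and chr9:139941371-139941700 (111 bp) and chr9:140054926-140055195 (106 bp) in control cells. On 14q the H3K4me3 interval chr14:105990832-105992715 lay under H3K27me3 over 1526 bp after metformin, and its control counterpart chr14:105990765-105992715 over 502 bp. The other 14q site, chr14:105988638-105988906 (269 bp), was found after metformin and held neither mark in control cells.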

How the data were processed

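The 4 peak lists come from H1299 cells, 1 library per mark and condition, and were not pooled, per the labels. The submitters' processing notes name Trimmomatic 0.38, Bowtie, MACS2 and hg19 (GRCh37). Options, and which library served as background: not given in the sources used here. The values that the authors deposited were taken to be −log10 q, since the smallest lie just above 1.30 for H3K4me3 and 1 for H3K27me3. It was used only to describe, rank or filter intervals, and depth is unknown.

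Lines with the same interval were joined, keeping the highest value. Covered length was clipped to the windows and to bins of 1 Mb or 100 kb. An overlap of 1 bp counted as shared. Positions are 1-based. Overlap code was tested on simulated data (803 intervals, 0 wrong) and gave the counts of bedtools 2.31.1. Tools were scipy 1.17.1, numpy 2.4.6, pandas 2.3.3, matplotlib 3.10.9 and Python 3.11.15.

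Members, windows and comparisons were chosen with earlier results of these data known. Regions were named by a rule: per window the 3 intervals of highest value of each H3K4me3 list, the 5 metformin and 3 control intervals with the most sequence outside the other list, the longest H3K27me3 interval and the 2 longest overlaps of the marks per list, and the 3 bins of 100 kb with the greatest difference. Broad domains, the blocks and individual bins of 1 Mb were named after their values were seen. Alternatives were a value limit, joining within 1 kb, equal list length and other overlap or width limits. Genes, sequences and inputs were not analysed here.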

Additional observations from a re-analysis of the deposited data

How the results depend on the processing

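No paired analysis was possible because each condition has a single library of a mark, and for that reason none could be left out. No ratio of covered length turned below 1 under any alternative run. The cause of each shift was not tested. The value limit was 5 for H3K4me3 and 1.5 for H3K27me3; merging joined intervals within 1 kb; equal length kept the 50585 or 85579 intervals of highest value.

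H3K4me3 covered length, metformin over control: with the value limit 19p moved to 1.35, 9q to 1.46, 14q to 1.27 and the rest of the genome to 1.14. With merging 9q moved to 1.45, 14q to 1.34 and the rest to 1.10. With equal length the 3 windows moved to 1.34, 19p to 1.32, 9q to 1.39, 14q to 1.33 and the rest to 1.10. Numbers of intervals were 435 after metformin and 349 in control cells with the value limit, and 291 and 272 with merging. The ratio of mean width was 1.10 with the value limit, 1.28 with merging and 1.13 with equal length, so after merging width and not number carried most of the difference. Shared intervals were 46.3% (metformin) and 77.2% (control) with a required overlap of 50% of the interval, 70.8% and 93.7% with the value limit, and 68.4% with merging (metformin).

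Of the metformin length outside control intervals, unpartnered intervals made up 38.5% (value limit), 11.2% (merging) and 41.6% (equal length), edges 55.6%, 73.5% and 45.0%, and bridged gaps 5.85%, 15.2% and 13.4%. The near-equal parts of unpartnered intervals and edges were thus lost with the value limit and with merging. The median width ratio of pairs was 1.197 with the value limit and 1.04 for pairs of 2 kb or more, with 79.3% and 63.0% wider after metformin. Broad domains numbered 104 after metformin and 72 in control cells from 2 kb, and 110 and 58 with merging.

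The H3K27me3 ratio was 1.46 for the 3 windows, 2.50 on 19p, 1.48 on 9q and 1.21 on 14q with the value limit, and 1.39, 1.95, 1.19 and 1.29 with merging. Sites with both marks numbered 21 after metformin and 6 in control cells at 200 bp or more, and 7 and 3 among H3K4me3 intervals of 5 or more. The median ratio of other chromosome ends was 1.25 with the value limit and 1.21 with equal length, and 22.2% of equally dense bins reached 1.2 times with equal length. Depth limits the calls of low value, and how far is unknown.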

Other observations

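The longest gaps between neighbouring H3K4me3 intervals of the windows had similar borders in both lists. The stretches before the first and after the last interval of a window are not counted here; on 14q the one after the last interval, which ended at 105996880, is longer. On 9q the gap ran over 267 kb after metformin (chr9:140774749-141042189) and 268 kb in control cells (chr9:140773822-141042203). On 19p it ran over 173 kb in both, chr19:93670-266664 after metformin and chr19:93667-266663 in control cells. These gaps held almost no H3K27me3, 239 bp after metformin and 195 bp in control cells on 9q and 209 bp and none on 19p. On 14q the longest gap was 69.8 kb after metformin (chr14:105561729-105631506) and 71.8 kb in control cells (chr14:105561409-105633172), and H3K27me3 covered 15643 bp of it in 9 intervals after metformin and 14006 bp in 11 intervals in control cells.

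Intervals of the windows stood closer together in the metformin list. More intervals in windows of fixed length leave shorter gaps, and the windows were chosen for larger coverage. Gaps in the rest of the genome were not measured, so the values are descriptions only. The median gap between neighbouring H3K4me3 intervals was 653 bp after metformin and 797 bp in control cells on 19p, 630 and 829 bp on 9q, and 535 and 661 bp on 14q. Gaps of 1 kb or less made up 59.2% after metformin and 52.9% in control cells on 19p, 62.3% and 53.6% on 9q, and 67.0% and 61.1% on 14q.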
